A study of Mus musculus with 12 samples.

Results

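The collagen genes were taken as every row of the deposited expression table whose name has the form Col, a number, a and a number, which gave 44 of its 34348 genes. They were sorted into 11 fibrillar collagens, 8 collagens of the basement membrane (types IV, XV and XVIII) and 25 others. Total RNA was sequenced from the liver and the small intestine of C57BL/6 mice treated with LCWE or, as controls, with PBS (phosphate-buffered saline), and the labels give no age or dose. There were 3 libraries each of LCWE liver, PBS liver, LCWE intestine and PBS intestine, 12 in all. LCWE is not spelled out in the labels. The abbreviation is commonly used for a Lactobacillus casei cell wall extract that is given to mice to induce vasculitis, as in Kawasaki disease. Column names of the authors' differential table add CFA, an abbreviation left unexplained there, to the LCWE groups, so a difference between LCWE and PBS may include a further agent. Whether the libraries of a group come from separate animals is not in the labels, so the spread that p-values rest on may be technical.

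Collagens are secreted or membrane-bound proteins in which 3 chains wind into a triple helix. Fibrillar collagens assemble into the rope-like fibrils that give tissue its tensile strength. Type IV collagen forms the sheet-like network of basement membranes under epithelium and around vessels and muscle, and the remaining types coat fibrils, anchor membranes, form beaded filaments or span the cell surface. In liver, stellate cells and portal fibroblasts are the usual source of fibrillar collagen, endothelial and stellate cells make type IV collagen, and hepatocytes make collagen XVIII. In the intestinal wall, fibroblasts and smooth muscle make most collagen.

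Reads in genes numbered 34741958 to 44921885 per liver library and 30294594 to 40253006 per intestinal library. RPKM divides a gene's reads by its length and by the library's total, so levels of different genes can be set side by side. Marker genes went with the labelled tissues: 8 hepatocyte markers summed to 23073 to 39604 RPKM over the 6 liver libraries and to 326 to 489 RPKM over the 6 intestinal libraries. Since these are bulk samples, fewer cells of a type and less RNA per cell cannot be told apart.

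The sequence before the start site is shown for 3 fibrillar genes that stood on opposite sides in the liver comparison, Col3a1 on the higher side and Col27a1 and Col5a3 on the lower side; they were chosen after their values were seen. Each is the 250 bases before the RefSeq start on GRCm38.p6, read in the direction of the gene, at chr1:45311288-45311537 (plus strand), chr4:63215162-63215411 (plus strand) and chr9:20815068-20815317 (minus strand). Capitals mark 3 promoter motifs searched on both strands, none of which contains another: TATAAA (the TATA box), CCAAT (the CAAT box) and GGGCGG (the GC box). The last line holds the 22 bases that lie in the first exons of both Col4a1 and Col4a2, at chr8:11312805-11312826 in the direction of Col4a2, because this pair of genes starts back to back.
Col3a1: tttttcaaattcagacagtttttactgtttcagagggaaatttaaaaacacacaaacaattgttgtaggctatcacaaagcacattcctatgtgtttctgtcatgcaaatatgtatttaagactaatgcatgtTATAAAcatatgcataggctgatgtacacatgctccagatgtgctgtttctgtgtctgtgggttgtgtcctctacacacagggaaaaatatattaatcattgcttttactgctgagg
Col27a1: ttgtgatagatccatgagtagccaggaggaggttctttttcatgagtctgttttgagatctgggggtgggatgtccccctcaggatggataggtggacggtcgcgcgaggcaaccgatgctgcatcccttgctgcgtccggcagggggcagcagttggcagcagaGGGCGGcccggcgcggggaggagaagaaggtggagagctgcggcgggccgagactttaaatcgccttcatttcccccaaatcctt
Col5a3: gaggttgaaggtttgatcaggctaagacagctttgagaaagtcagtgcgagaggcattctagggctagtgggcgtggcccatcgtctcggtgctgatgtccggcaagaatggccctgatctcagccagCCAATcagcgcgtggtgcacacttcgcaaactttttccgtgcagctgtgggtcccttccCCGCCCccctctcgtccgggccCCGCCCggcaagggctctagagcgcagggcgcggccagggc
Col4a1 and Col4a2: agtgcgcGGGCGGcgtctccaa

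The Col3a1 window held 1 TATAAA from base -117 to -112 before the start, had 0 CpGs and was 35.2% G or C. The Col27a1 window held 1 GGGCGG from base -85 to -80, 15 CpGs and 59.6% G or C, and it precedes a RefSeq start other than the one in the expression table. In Col5a3, a CCAAT stood from base -122 to -118 and GGGCGG was read on the opposite strand from base -63 to -58 and from -41 to -36, with 17 CpGs and 62.8% G or C. RefSeq windows were matched for 35 of the 44 collagen genes, 38 windows in all. Many of these windows overlap annotated exons, as for Col1a2 and Col6a1. Some precede a start far from the one in the expression table, as for Col25a1. The shares that follow include them. TATAAA was in 5 of these 38 windows (13.2%), against 12.4% of all 32851 windows of the same length. CCAAT was in 13 (34.2%), against 33.8%, and GGGCGG in 22 (57.9%), against 32.7%. The collagen windows were also richer in G and C, with a median of 59% against 52.4% over all windows. The part of this in the GGGCGG share was not tested. These matches describe letters only.

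Of the 44 collagen genes, 25 averaged at least 1 RPKM in some group and 19 in none. Col18a1 (chr10:77052178-77166548, mm10, minus strand) encodes collagen XVIII, whose cleaved end is endostatin, and was the most abundant collagen RNA of the liver. Its level was 199, 198 and 218 RPKM in LCWE liver, against 149.6, 188 and 191 RPKM in PBS liver. In the intestine it was 8.97, 15.0 and 18.4 RPKM with LCWE and 10.9, 11.6 and 11.9 RPKM with PBS. This single gene made up 72.1% ± 2.5 of all collagen RPKM in LCWE liver and 70.9% ± 1.9 in PBS liver, but 3.89% ± 0.15 in LCWE intestine and 3.93% ± 0.27 in PBS intestine (SD, n = 3 libraries each, as below). The gene with the next highest share was Col5a3, a type V chain, with 5.29% ± 0.61 in LCWE liver and 8.71% ± 0.55 in PBS liver. Collagen RNA of the intestine was spread over many genes. Col6a1, a chain of the beaded filaments of type VI collagen, held 20.4% ± 0.6 in LCWE intestine and 21% ± 0.5 in PBS intestine. After it came Col4a1, a type IV chain, with 11.3% ± 0.5 in LCWE intestine and 10.7% ± 0.2 in PBS intestine. Col3a1, the chain of type III collagen, held 9.66% ± 0.67 in LCWE intestine and 9.48% ± 0.36 in PBS intestine.

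**Figure D1:**
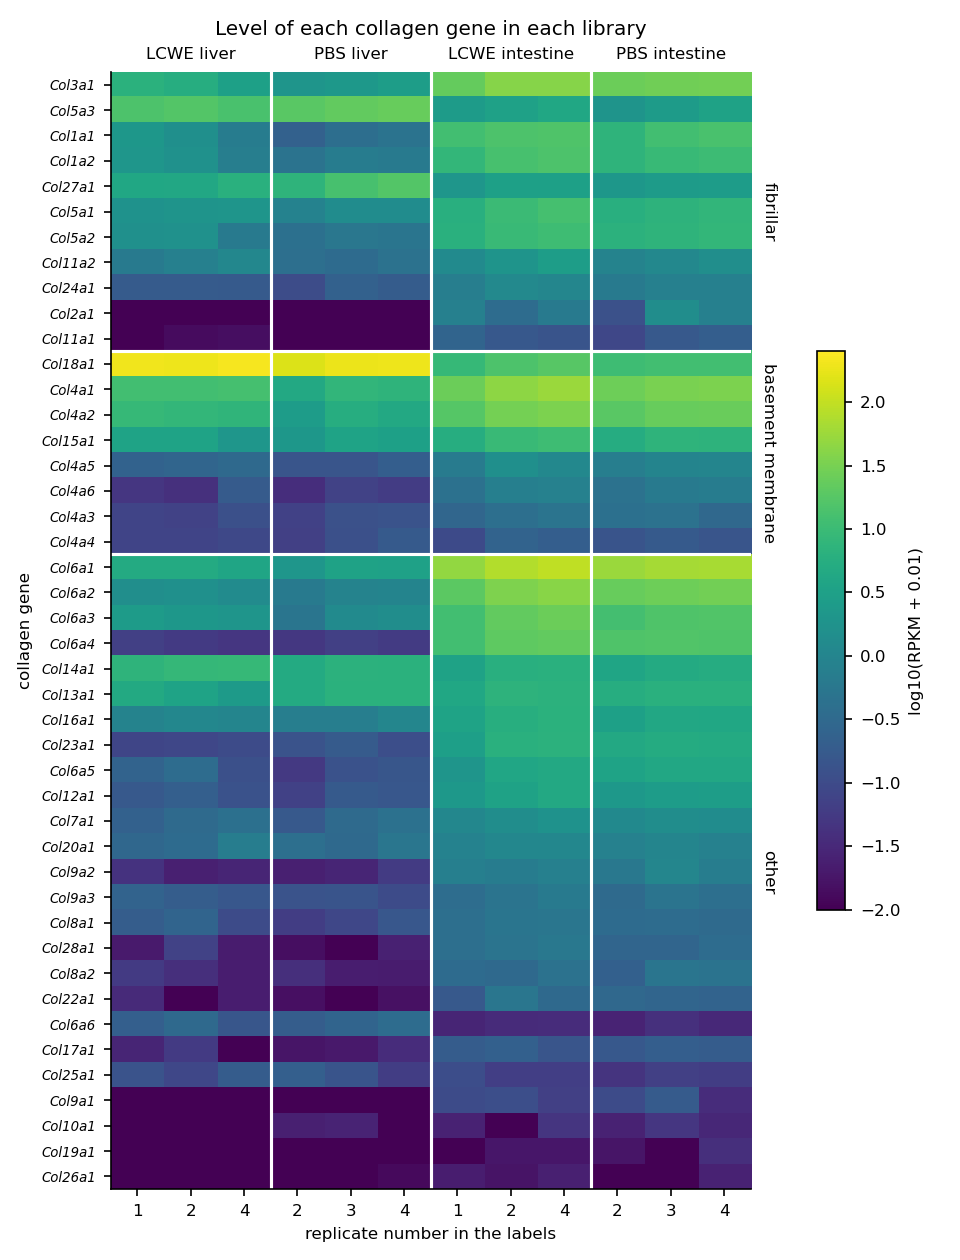
Level of the 44 collagen genes (rows, by class and mean level) in each of the 12 libraries (columns, with the replicate number of the labels), as log10(RPKM + 0.01). Col18a1 is the brightest row in liver at 149.6 to 218 RPKM, Col6a1 is the brightest in intestine at 48.4 to 95 RPKM, and Col2a1 and Col9a1 are among the rows at 0 in every liver library.

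**Figure D2:**
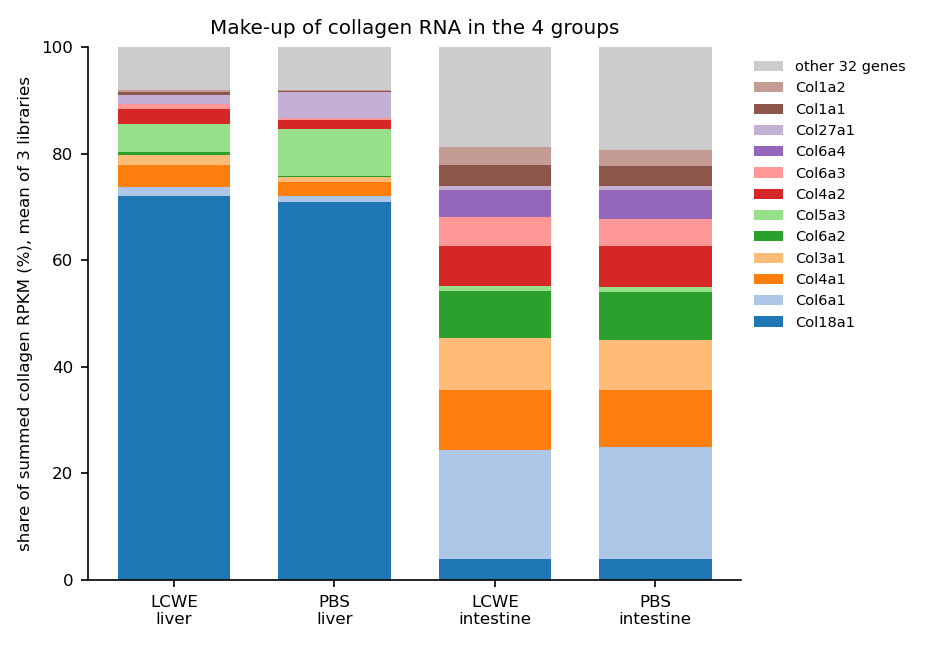
Share of the summed collagen RPKM held by each gene (percent, mean of 3 libraries per group), with the 12 genes of highest share named and the other 32 pooled in grey. Col18a1 fills 72.1% of the LCWE liver bar and 70.9% of the PBS liver bar, against 3.89% for LCWE intestine and 3.93% for PBS intestine.

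The first comparison asks which collagen genes differ in liver between LCWE and PBS. Most collagens of fibrils, basement membrane and beaded filaments stood higher in LCWE liver, and 3 stood lower, but none passed the threshold. Levels were compared with limma on log2(RPKM + 0.5), Benjamini-Hochberg adjusted over all genes tested, so that fold changes understate those of low genes. Of 18 collagen genes that reached 0.5 RPKM in at least 3 liver libraries, 0 were called at an adjusted p below 0.05, against 4.04% of 14404 genes, and the lowest adjusted p was 0.064 by limma, for Col4a1. By limma voom on the reads recovered from RPKM, 3 were called, Col4a1, Col6a2 and Col11a2, against 5.07% of all genes. At an unadjusted p below 0.05 there were 15 of the 18, against 18.7% of all genes. The LCWE and PBS libraries did not overlap for 13 genes that were higher (background 18.7%) and for 3 that were lower (background 8.84%). Col1a1 and Col11a2 reached the detection limit only through their LCWE libraries, so they had to stand higher without overlap. Both are among the 13 genes and count in the medians given here, and Col11a2 is among the voom calls. The log2 difference was above 0 for 15 of the 18, against 60.2% of all genes. Over the 18 genes the median log2 difference was 0.58, against 0.06 over all genes, and by class it was 0.70 for 8 fibrillar, 0.55 for 4 basement membrane and 0.51 for 6 other collagens. With no detection limit, 41 genes were compared and 0 were called, against 1.18% of all genes, and the median was 0.06, against 0.03 over all genes. With the limit at 1 RPKM the fibrillar median was -0.017, over 4 genes.

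Among basement membrane collagens, the pair Col4a1 and Col4a2 encodes the chains of the common type IV network. Col4a1 (chr8:11198423-11312826, minus strand) stood at 11.6, 11.9 and 12.7 RPKM in LCWE liver, against 4.53, 7.84 and 7.22 RPKM in PBS liver. Col4a2 (chr8:11312805-11449287, plus strand) stood at 9.01, 8.23 and 7.43 RPKM in LCWE liver, against 2.68, 5.46 and 4.49 RPKM in PBS liver. All LCWE libraries lay above all PBS libraries for both genes. Their log2 differences were 0.87 ± 0.20 (limma adjusted p = 0.064) and 0.93 ± 0.23 (limma adjusted p = 0.0796, ± SE), which are folds of 1.83 and 1.91. The RPKM ratio of Col4a1 over Col4a2 was 1.29 to 1.71 in LCWE liver, 1.44 to 1.69 in PBS liver, 1.47 to 1.56 in LCWE intestine and 1.35 to 1.42 in PBS intestine, so that its groups overlapped in liver and not in intestine. Without PBS liver replicate 2, the lowest for both, 6.64% of all genes were called and each of these was, Col4a1 with a log2 difference of 0.65 (limma adjusted p = 0.0175) and Col4a2 with 0.67 (limma adjusted p = 0.0365). For Col18a1 the log2 difference was 0.23 ± 0.12 (limma adjusted p = 0.397), with a 95% interval from -0.07 to 0.52. Col15a1, which encodes the related collagen XV, averaged 3.05 ± 0.90 RPKM in LCWE liver and 2.95 ± 0.76 RPKM in PBS liver (SD), with overlapping libraries.

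The fibrillar collagens split. The chains of type I, III and part of type V collagen stood higher in LCWE liver, while Col5a3 and Col27a1 stood lower. Col1a1 (chr11:94936224-94953042, plus strand), the main chain of type I collagen, stood at 2.14, 1.57 and 0.697 RPKM in LCWE liver, against 0.218, 0.383 and 0.473 RPKM in PBS liver. Col3a1 (chr1:45311538-45349706, plus strand) stood at 6.50, 5.42 and 3.16 RPKM in LCWE liver, against 1.93, 2.21 and 2.79 RPKM in PBS liver. LCWE replicate 4 was the lowest of its group for both genes, and for Col3a1 it lay above the PBS libraries. For Col1a1 it had to lie above them, since only the LCWE libraries reached the detection limit. The log2 differences were 1.14 ± 0.30 for Col1a1 (limma adjusted p = 0.091) and 0.93 ± 0.26 for Col3a1 (limma adjusted p = 0.104). Without LCWE liver replicate 4, Col3a1, Col1a2 and Col5a2 were called, with log2 differences of 1.21, 1.11 and 1.12 (limma adjusted p = 0.0354 to 0.0444), against 1.78% of all genes. Col1a2, the partner chain of type I, averaged 1.49 ± 0.68 RPKM in LCWE liver and 0.595 ± 0.122 RPKM in PBS liver. The RPKM ratio of Col1a1 over Col1a2 was 0.938 to 1.04 in LCWE liver, against 0.471 to 0.762 in PBS liver, which do not overlap. It was 1.03 to 1.38 in LCWE intestine and 1.03 to 1.33 in PBS intestine. In PBS liver, Col1a1 stood under the 0.5 RPKM limit in every library, with 64 to 122 reads, so the ratio there rests on low values. Ratios of chains were not set against a background of other gene pairs.

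Col27a1 (chr4:63214004-63334991, plus strand), the chain of the minor fibrillar collagen XXVII, stood at 4.14, 4.26 and 6.24 RPKM in LCWE liver, against 7.34, 13.3 and 16.7 RPKM in PBS liver. Col5a3 (chr9:20770050-20815067, minus strand) stood at 15.1, 16.4 and 13.6 RPKM in LCWE liver, against 19.0, 21.9 and 23.9 RPKM in PBS liver. Neither gene's groups overlapped. For both, PBS liver replicate 2 was the lowest PBS library and so the nearest to LCWE. Without it 6.64% of all genes were called, Col27a1 and Col5a3 among them (limma adjusted p = 0.0187 and 0.033). Leaving out any other liver library gave no call for either gene. Col27a1 had a log2 difference of -1.21 ± 0.30 (limma adjusted p = 0.081) and Col5a3 one of -0.51 ± 0.13 (limma adjusted p = 0.0776). The authors' deposited table lists Col27a1 with a log2 fold change of -1.61 and a false discovery rate of 0.012, and it lists Col5a2 with 1.09 and a false discovery rate of 0.101. Both of these are liver values and no other collagen gene is in that table. Col5a3 and Col27a1 held most of the fibrillar RPKM of the liver. The sum over all fibrillar genes was 28.2 to 34.0 RPKM in LCWE liver and 30.7 to 47.0 RPKM in PBS liver, with overlap. Of the 8 tested genes, 6 stood higher with LCWE, including Col1a1 and Col11a2, which had to.

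Type V collagen has 3 chains. Col5a1 averaged 1.85 ± 0.12 RPKM in LCWE liver and 1.21 ± 0.29 RPKM in PBS liver, and Col5a2 averaged 1.30 ± 0.60 RPKM in LCWE liver and 0.489 ± 0.071 RPKM in PBS liver. These chains help to start fibrils, and LCWE lay above PBS in every library for both. The RPKM ratio of Col5a3 over Col5a1 was 8.73, 8.74 and 6.93 in LCWE liver, against 21.6, 15.8 and 17.3 in PBS liver. These ratios could not overlap, since LCWE lay below PBS in every library for Col5a3 and above it for Col5a1. In the intestine the ratio of Col5a3 over Col5a1 was 0.318 to 0.438 with LCWE and 0.312 to 0.432 with PBS. The ratio of Col5a1 over Col5a2 was 1.08, 1.11 and 3.20 in LCWE liver, against 2.14, 2.52 and 2.72 in PBS liver, with overlap. Col11a2, a chain of the related collagen XI, averaged 0.853 ± 0.230 RPKM in LCWE liver and 0.388 ± 0.054 RPKM in PBS liver. Its groups could not overlap, since only its LCWE libraries reached the detection limit. The other 3 fibrillar genes were under the detection limit, with Col24a1 at 0.097 to 0.220 RPKM over the liver libraries, Col11a1 at 0 to 0.005 RPKM and Col2a1, the cartilage collagen, with 0 reads in all 6.

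**Figure D3:**
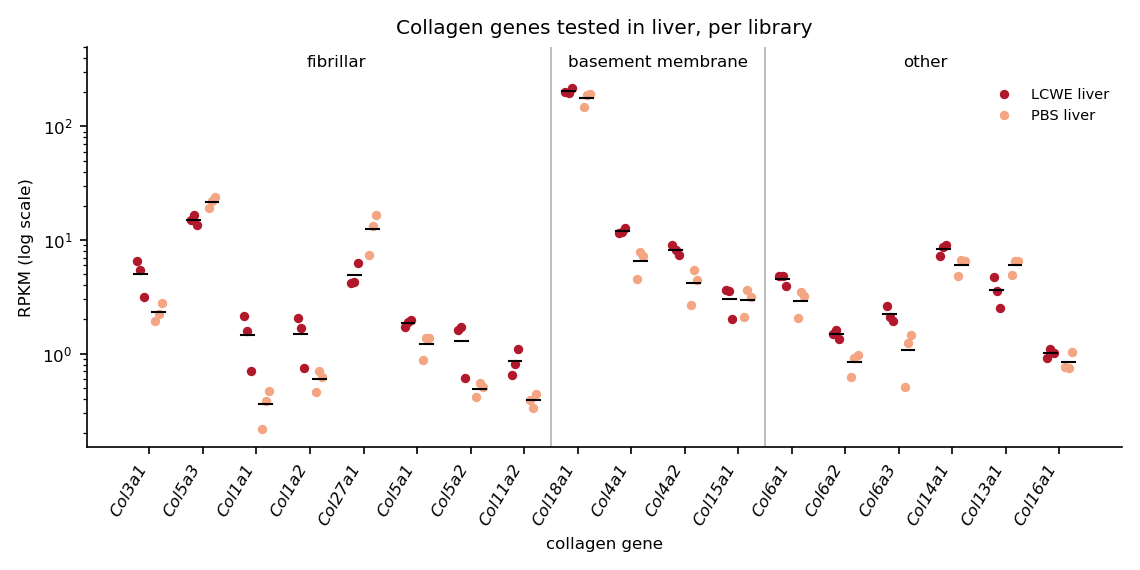
RPKM (log scale) of the 18 collagen genes tested in liver, by class. Points are libraries, LCWE liver left of PBS liver for each gene, and black lines are group means; Col5a3, Col27a1 and Col13a1 are the genes with LCWE below PBS, and for Col15a1 and Col16a1 the groups overlap.

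Among the other collagens, the 3 main chains of type VI collagen all stood higher in LCWE liver. Col6a1 stood at 4.82, 4.81 and 3.90 RPKM in LCWE liver, against 2.05, 3.45 and 3.23 RPKM in PBS liver. Col6a2 stood at 1.48, 1.62 and 1.34 RPKM in LCWE liver, against 0.627, 0.912 and 0.965 RPKM in PBS liver. Col6a3, the longest of these chains, stood at 2.62, 2.09 and 1.95 RPKM in LCWE liver, against 0.509, 1.25 and 1.45 RPKM in PBS liver. None of these groups overlapped, and the log2 differences were 0.58 ± 0.19, 0.58 ± 0.15 and 0.84 ± 0.26, with limma adjusted p of 0.172, 0.0828 and 0.145. Col6a1 and Col6a2 are neighbours on the same strand of chromosome 10. Their alternative partners Col6a4, Col6a5 and Col6a6 lie together on chromosome 9 and stood under the detection limit in every liver library, at 0.041 to 0.355 RPKM. Col14a1, which coats fibrils, averaged 8.30 ± 0.88 RPKM in LCWE liver and 5.99 ± 1.03 RPKM in PBS liver, without overlap. Col13a1, a transmembrane collagen of adhesion sites, had the opposite order, with 3.60 ± 1.09 RPKM in LCWE liver and 6.00 ± 0.95 RPKM in PBS liver, a log2 difference of -0.69 ± 0.22 (limma adjusted p = 0.154). Col16a1 averaged 1.01 ± 0.09 RPKM in LCWE liver and 0.840 ± 0.160 RPKM in PBS liver, with overlap. The 26 collagen genes not tested in liver ranged from 0 to 0.714 RPKM, or 0 to 172 reads.

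**Figure D4:**
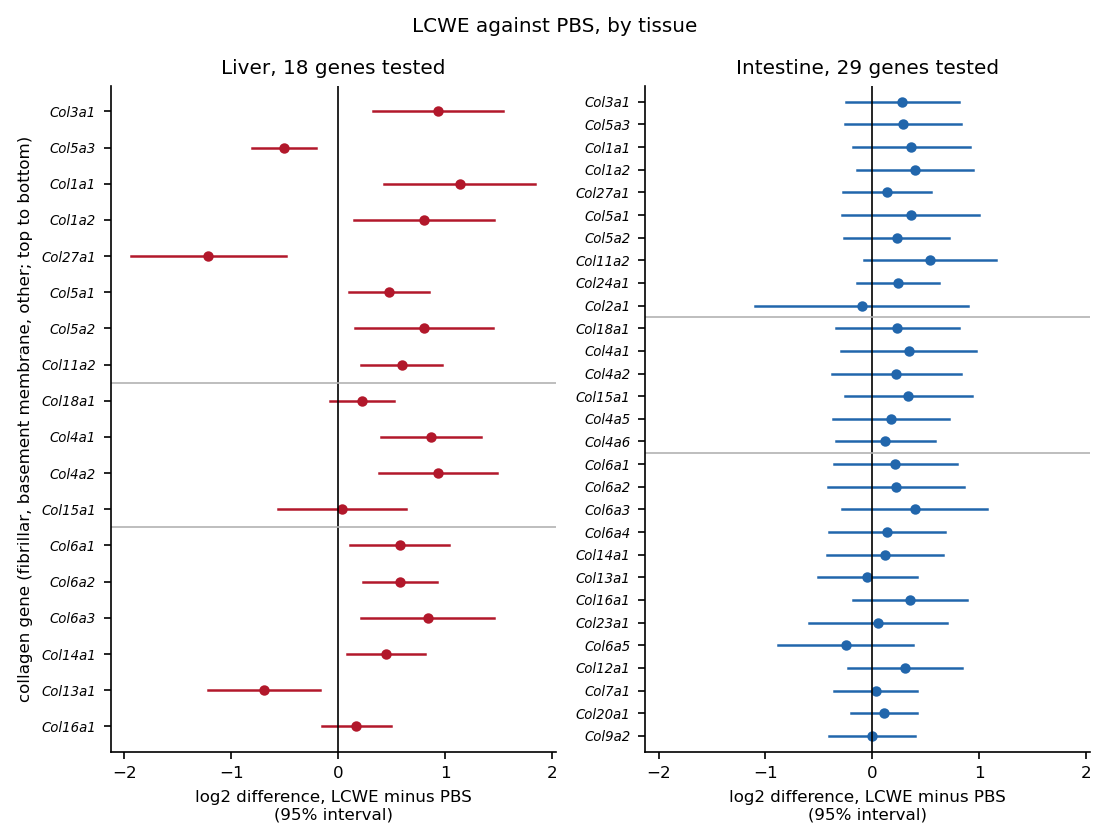
Log2 difference between LCWE and PBS on the log2(RPKM + 0.5) scale, with its 95% interval from limma, for the 18 collagen genes tested in liver (left) and the 29 tested in intestine (right). In liver 15 points lie above 0 and 15 intervals leave out 0, and in intestine 25 points lie above 0 and every interval includes 0; 0 genes were called in either tissue after adjustment.

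The same question was asked in the intestine. No collagen gene was called: 0 of 29 tested genes passed by limma and 0 by limma voom, against 0% of 17510 genes by either, and 0 of the 29 reached an unadjusted p below 0.05, against 12.6% of all genes. The groups overlapped for all 29, against a background of 13.2% of genes with LCWE above PBS and 6.15% below. The median log2 difference was 0.22 over the 29 genes and 0.11 over all genes. By class it was 0.28 for 10 fibrillar, 0.23 for 6 basement membrane and 0.11 for 13 other collagens. The log2 difference was above 0 for 25 of the 29, against 69% of all genes, for 23 with quantile scaling, against 56.7%, and for 23 with median-ratio scaling, against 52.8%.

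Type VI collagen led the intestine. Col6a1 stood at 48.4, 78.3 and 95 RPKM in LCWE intestine, against 55.4, 63.0 and 65.6 RPKM in PBS intestine. Col6a2 stood at 19.6, 35.8 and 41.7 RPKM in LCWE intestine, against 24.2, 26.4 and 28.6 RPKM in PBS intestine. Col6a3 stood at 11.9, 22.2 and 26.2 RPKM in LCWE intestine, against 12.2, 15.1 and 16.0 RPKM in PBS intestine. In each of them LCWE replicate 1 lay below the PBS libraries and LCWE replicates 2 and 4 lay above them. Type IV had the same layout, with Col4a1 at 25.8, 44.1 and 54.1 RPKM in LCWE intestine, against 26.9, 33.3 and 33.6 RPKM in PBS intestine. Col4a2 stood at 17.6, 29.8 and 34.7 RPKM in LCWE intestine, against 19.0, 23.9 and 24.9 RPKM in PBS intestine. Fibrillar Col3a1 stood at 23.2, 40.4 and 40.5 RPKM in LCWE intestine, against 25.4, 28.0 and 29.6 RPKM in PBS intestine, and so followed them.

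The 6 collagen genes with the smallest p in intestine did not pass. Col11a2 stood at 1.25, 1.92 and 2.84 RPKM in LCWE intestine, against 0.909, 1.12 and 1.51 RPKM in PBS intestine, a log2 difference of 0.54 ± 0.26 (limma adjusted p = 0.441). Col1a2 stood at 8.33, 13.0 and 14.7 RPKM in LCWE intestine, against 7.14, 9.13 and 10.3 RPKM in PBS intestine. Col1a1 stood at 11.5, 14.8 and 15.2 RPKM in LCWE intestine, against 7.37, 11.6 and 13.6 RPKM in PBS intestine. The type I chains thus overlapped between groups, with log2 differences of 0.40 ± 0.23 for Col1a2 and 0.37 ± 0.23 for Col1a1. Col16a1, a fibril-associated collagen, stood at 3.52, 5.77 and 6.34 RPKM in LCWE intestine, against 3.17, 4.28 and 4.20 RPKM in PBS intestine. Col24a1, the chain of the minor fibrillar collagen XXIV, stood at 0.753, 1.19 and 1.05 RPKM in LCWE intestine, against 0.643, 0.820 and 0.810 RPKM in PBS intestine. Col6a3 was the sixth, with a log2 difference of 0.40 ± 0.28 (limma adjusted p = 0.537). The limma adjusted p for Col1a2, Col1a1, Col16a1 and Col24a1 was 0.480, 0.501, 0.502 and 0.518.

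Among the other collagens of the intestine, Col6a4, the alternative type VI chain that was untested in liver, averaged 18 ± 5.6 RPKM in LCWE intestine and 15.8 ± 0.5 RPKM in PBS intestine. Col23a1, a transmembrane collagen, averaged 5.31 ± 2.01 RPKM in LCWE intestine and 4.85 ± 0.29 RPKM in PBS intestine. Col6a5 was the tested gene with the lowest log2 difference, -0.25 ± 0.26, at 3.47 ± 1.32 RPKM in LCWE intestine and 4.04 ± 0.43 RPKM in PBS intestine. Col12a1, which like Col14a1 lies on fibril surfaces, averaged 3.38 ± 1.10 RPKM in LCWE intestine and 2.57 ± 0.34 RPKM in PBS intestine. Col7a1, the collagen of anchoring fibrils, averaged 1.41 ± 0.34 RPKM in LCWE intestine and 1.35 ± 0.10 RPKM in PBS intestine. Col2a1 was uneven, at 0.355 to 0.811 RPKM in LCWE intestine and 0.113 to 1.43 RPKM in PBS intestine. The 15 genes not tested in intestine ranged from 0 to 0.636 RPKM, or 0 to 166 reads.

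Within each group some libraries were high or low for nearly all collagen genes at once. LCWE intestine replicate 1 lay below its group's mean for 27 of 29 genes, with a median deviation of -0.47 on the log2(RPKM + 0.5) scale, against -0.11 over all genes. LCWE intestine replicate 4 lay above it for 29 of 29 genes, with a median deviation of 0.31, against 0.05 over all genes. PBS liver replicate 2 lay below its group's mean for 18 of 18 genes, with a median deviation of -0.25, against -0.07 over all genes. Likewise PBS intestine replicate 2 lay below for 29 of 29, by a median of -0.19, against -0.03. Smooth muscle markers (12 genes) were in the same order, with sums of 1410, 1678 and 2380 RPKM in LCWE intestine and 1239, 1825 and 1903 RPKM in PBS intestine. Endothelial markers (12 genes) summed to 53.4, 94.3 and 101 RPKM in LCWE intestine and 52.6, 73.2 and 78.2 RPKM in PBS intestine. Fibroblast and stellate cell markers (15 genes) summed to 168, 235 and 310 RPKM in LCWE intestine and 155, 229 and 213 RPKM in PBS intestine. The part of these markers in the spread of collagen levels was not tested. Without LCWE intestine replicate 1, LCWE lay above PBS in every library for 24 of the 29 collagen genes, against 42.4% of all genes, yet 0 passed, against 0.405% of all genes, and the lowest limma adjusted p was 0.066.

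**Figure D5:**
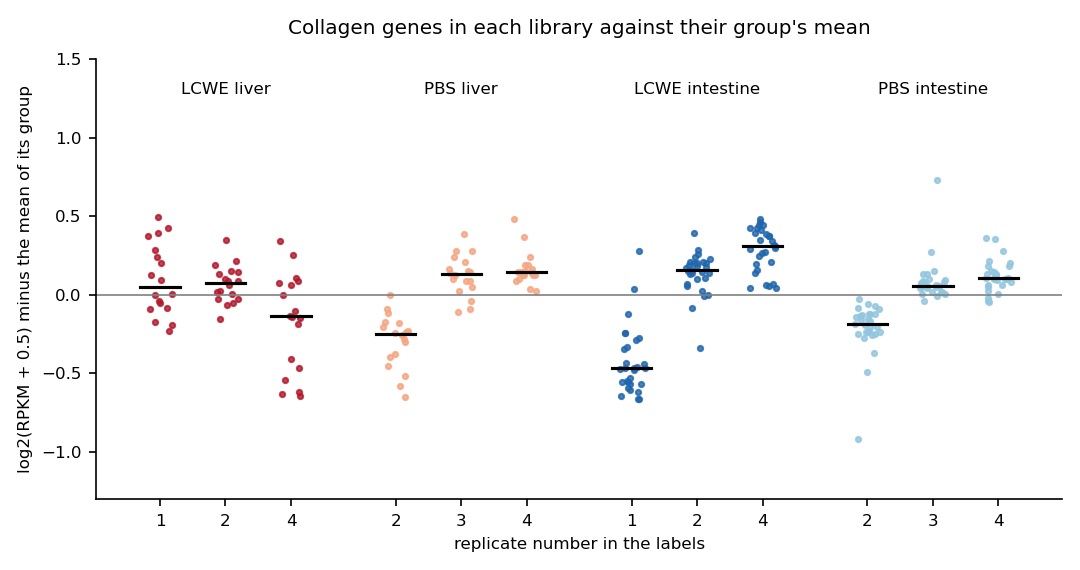
Each collagen gene's log2(RPKM + 0.5) minus the mean of its group, per library; points are the 18 genes tested in liver or the 29 tested in intestine, black lines are medians, and LCWE groups are left of PBS groups. LCWE intestine replicate 1 has its median at -0.47 and replicate 4 at 0.31, and PBS liver replicate 2 has its median at -0.25.

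Whether the effect of LCWE on collagen genes differs between the tissues was tested as the liver difference minus the intestinal difference. None passed: 0 of 29 collagen genes were called by limma and 0 by limma voom, against 0.736% of 18619 genes by limma and 0.865% by voom, and 2 had an unadjusted p below 0.05, against 12.8% of all genes. Those 2 were Col27a1, with a difference of effects of -1.35 ± 0.38 (limma adjusted p = 0.131), and Col5a3, with -0.80 ± 0.27 (limma adjusted p = 0.231). Of the 29 genes, 18 were also tested in liver. The others missed the detection limit there, so their difference of effects rests largely on the intestinal values. In the intestine Col27a1 stood at 2.05, 3.19 and 3.11 RPKM with LCWE and 2.15, 2.55 and 2.66 RPKM with PBS, and Col5a3 at 2.57, 3.23 and 4.10 RPKM with LCWE and 1.87, 2.57 and 3.45 RPKM with PBS. Their groups overlapped there, while in liver LCWE lay below PBS for both. The next 4 by p were Col13a1 with -0.64, Col4a2 with 0.71, Col1a1 with 0.77 and Col3a1 with 0.66, with limma adjusted p of 0.429 to 0.501. Without PBS liver replicate 2, the PBS liver library nearest to LCWE for Col27a1, this gene was called, at -1.67 (limma adjusted p = 0.0329), against 0.96% of all genes.

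Control liver was set against control intestine to show where each collagen RNA lies without treatment. This comparison shares the PBS liver libraries with the liver comparison of LCWE, so the 2 comparisons are not independent. Of 27 collagen genes tested, 25 were called by limma, against 77.6% of 17253 genes, with 3 higher in liver (background 16.9%) and 22 lower (background 60.7%). The detection limit was reached through intestine alone by 10 of the 27, which therefore had to differ: Col1a1, Col11a2, Col24a1, Col4a5, Col6a4, Col6a5, Col7a1, Col9a2, Col12a1 and Col23a1. The median log2 difference was -2.14 over the 27 genes and -0.71 over all genes, and the median of all genes was 0.01 under quantile scaling. With quantile scaling 5 collagen genes were called higher, against 34.6% of all genes, and 17 lower, against 34.2%. With median-ratio scaling 5 were called higher, against 32.7%, and 20 lower, against 36.2%.

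The 3 genes higher in liver were Col18a1 (log2 difference 3.88 ± 0.12, 14.7-fold), Col5a3 (2.84 ± 0.20, 7.18-fold) and Col27a1 (2.06 ± 0.28, 4.17-fold), with a highest limma adjusted p of 0.000464 for Col27a1. In the liver comparison of LCWE, which shares the PBS liver libraries, Col18a1, Col5a3 and Col27a1 had log2 differences of 0.23, -0.51 and -1.21. The major fibrillar genes had the opposite tissue order, with log2 differences of -3.33 ± 0.14 for Col3a1 and -3.08 ± 0.17 for Col1a2. Their values for LCWE against PBS in liver were 0.93 and 0.80. Col1a1, 1 of the 10 that had to differ, had -3.70 ± 0.24. Type VI chains had -4.34 ± 0.14 for Col6a2 and -4.20 ± 0.18 for Col6a1. Col6a4, also 1 of the 10, had -4.89 ± 0.10, a value that ran from -8.30 to -4.00 over the alternatives. For type IV the gap was smaller, -2.20 ± 0.21 for Col4a1 and -2.33 ± 0.24 for Col4a2. Col14a1 and Col13a1 were not called; Col14a1 averaged 5.99 ± 1.03 RPKM in PBS liver and 4.66 ± 0.81 RPKM in PBS intestine, and Col13a1 6.00 ± 0.95 RPKM in PBS liver and 6.00 ± 0.47 RPKM in PBS intestine. With quantile or median-ratio scaling both of these were called higher in liver. Col6a6, too low to be tested, stood at 0.191 to 0.355 RPKM in PBS liver and 0.017 to 0.031 RPKM in PBS intestine.

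Collagen chains are folded, modified, cut, cross-linked and broken down by other proteins, and lists of their genes were read beside them. In liver 3.39% of all tested genes were called higher with LCWE, which is the background of the counts in these lists. For collagen folding and secretion in liver, 1 of 18 tested genes rose, which was Hsp90b1, a general chaperone of the endoplasmic reticulum, with 1754 ± 172 RPKM in LCWE liver and 818 ± 50 RPKM in PBS liver (limma adjusted p = 0.00835). Serpinh1, the chaperone dedicated to procollagen, averaged 8.65 ± 2.0 RPKM in LCWE liver and 4.22 ± 1.04 RPKM in PBS liver (limma adjusted p = 0.060). Of collagen receptors 1 of 6 rose in liver, the inhibitory leukocyte receptor Lair1, with 1.49 ± 0.14 RPKM in LCWE liver and 0.659 ± 0.008 RPKM in PBS liver (limma adjusted p = 0.0197); the receptor Ddr2 had a log2 difference of 0.42. None was called in liver among 9 genes of procollagen processing and crosslinking (Tgm2 0.42, Loxl2 0.46), 7 of degradation (Timp2 0.25, Mmp2 0.39) and 12 basement membrane partners (Sparc 0.40, Lamb3 -0.30). The same held for 9 fibril-associated proteoglycans and glycoproteins (Omd -0.68, Lum 0.51) and 12 genes of TGF-beta signalling (Tgfbr2 0.38, Tgfb1 0.24), where each value is a log2 difference of the 2 genes with the smallest p.

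Hsp90b1 was not called without LCWE liver replicate 2 or with the replicate number as a block. Lair1 was not called without LCWE liver replicate 1 or 2 or PBS liver replicate 3 or 4, with no filter, or with the block. The limma adjusted p ran up to 0.208 for Hsp90b1 and 0.413 for Lair1 over the alternatives.

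In the intestine 0 genes of these lists were called. With 1 fit over the 4 groups, which called 1.39% of all genes, Cd36, Itga2, Agrn and Mmp3 of these lists and the enterocyte markers Apoa4, Alpi and Lct passed, with limma adjusted p of 0.0121 to 0.0361. The 2 smallest p of each list belonged to Hsp90b1 (log2 difference 0.57) and Plod2 (0.50) for folding, Pcolce (0.23) and Loxl1 (0.36) for processing, and Mmp3 (1.02) and Timp1 (0.48) for degradation. They belonged to Cd36 (-1.33) and Itga2 (0.72) for receptors, Agrn (-0.66) among basement membrane partners, Thbs1 (0.60) and Dcn (0.42) for fibril-associated proteins, and Skil (-0.30) and Ctgf (0.53) for TGF-beta signalling. For the tissue difference, Cd36 was called and no other gene of the matrix lists was.

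Markers of the cells that the liver samples could hold were read the same way, against the same background of 3.39% of genes called higher. The part of these markers in the collagen levels of the liver was not tested. Fibroblast and stellate cell markers summed to 50.3 to 53.2 RPKM in LCWE liver and 42.9 to 44.3 RPKM in PBS liver, and 2 of 12 tested rose, Vim and Thy1, with log2 differences of 1.21 and 0.97. The median of these 12 was 0.17, with 10 above 0. Most of the rise in the sum lay in Vim. Its level was 10.68, 10.99 and 13.33 RPKM in LCWE liver, against 5.17, 3.94 and 5.23 RPKM in PBS liver. The sum therefore does not show that the fibroblast and stellate cell markers rose as a set. Endothelial markers summed to 94.8 to 103 RPKM in LCWE liver and 86.1 to 90.7 RPKM in PBS liver, and 1 of 10 rose, Lyve1, by 1.33, while Cdh5 had 0.45 and did not pass. The median of the 10 endothelial markers was 0.15, with 6 above 0. The Lyve1 call held in 5 of 15 alternatives, and those that lost it include quantile and median-ratio scaling. Macrophage markers summed to 343 to 610 RPKM in LCWE liver and 137 to 189 RPKM in PBS liver, and 7 of 9 rose, among them Csf1r (1.04) and Lyz2 (1.46). Hepatocyte markers summed to 23073 to 25208 RPKM in LCWE liver and 27739 to 39604 RPKM in PBS liver, with the highest sum in PBS replicate 2, and 0 of 8 were called (Ttr -0.60, Hnf4a 0.47). Smooth muscle markers summed to 32.0 to 33.4 RPKM in LCWE liver and 21.6 to 34.4 RPKM in PBS liver, and 0 of 8 were called (Des 0.29, Tagln 0.37). Cholangiocyte markers summed to 31.0 to 38.6 RPKM in LCWE liver and 21.7 to 39.5 RPKM in PBS liver, with 0 of 4 called (Sox9 0.69, Epcam -0.22), and enterocyte markers had 0 of 4 called (Fabp2 -0.89, Vil1 -0.12). Of Vim, Thy1, Lyve1, Csf1r and Lyz2, 0 passed without LCWE liver replicate 1, 0 without LCWE liver replicate 2, 2 without LCWE liver replicate 4 and 1 without PBS liver replicate 3, and their highest limma adjusted p over the alternatives was 0.137 to 0.284. The 10 nerve and glia markers summed to under 1 RPKM in each liver library and none was tested.

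In the intestine no marker was called, other than the 3 enterocyte genes with 1 fit over the 4 groups. Enterocyte markers summed to 2473 to 7815 RPKM in LCWE intestine and 10668 to 20387 RPKM in PBS intestine, with log2 differences of -3.56 for Apoa4 and -1.54 for Alpi that did not pass. Macrophage markers summed to 141 to 198 RPKM in LCWE intestine and 115 to 148 RPKM in PBS intestine (Itgam 0.38, Lyz2 0.40). The other 2 genes with the smallest p per list were Vim (0.46) and Dpt (0.49) for fibroblasts, Lmod1 (0.28) and Myl9 (0.20) for smooth muscle, and Tie1 (0.36) and Lyve1 (0.39) for endothelium. They were Krt7 (0.51) and Krt19 (0.43) for cholangiocytes, genes that intestinal epithelium also expresses, Ass1 (0.37) and Apoh (0.34) for hepatocytes, and Gap43 (0.40) and Ret (0.34) for nerve and glia.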

How the data were processed

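The authors deposited RPKM values per gene and library, per the file headers, with the summed gene length used for them. The submitters' processing notes list, with no roles, mm10, Trimmomatic 0.36, edgeR 3.12.1, featureCounts and Subread 1.5.1; the aligner and the strandedness are not given in the sources used here, so reads of overlapping genes on opposite strands cannot be told apart. Of 16 library columns, 4 were not used because only 12 matched a sample. Multiplying RPKM by gene length returned whole reads within 0.001 for 100% of values, so the reads per library are known, and group correlations of log2 values ranged from 0.980 to 0.992. The authors also deposited a table of log2 fold changes with p-values and false discovery rates, which was read for the collagen genes only.

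Genes that reached RPKM 0.5 in 3 or more libraries of a comparison were tested on log2(RPKM + 0.5) by two-sided limma tests (limma 3.58.1, R 4.3.3, eBayes with trend), with Benjamini-Hochberg adjustment over all genes tested and calls below 0.05. Exact permutation over 3 and 3 libraries gives no two-sided p under 0.1 and was not used for single genes. Errors are SDs over libraries for levels and SEs for log2 differences. The procedure was run on simulated reads in which each gene varied independently. That simulation did not model deviations of a library shared by many genes, which the collagen genes show here. Class medians and sums are descriptions.

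The collagen genes, classes, further gene lists, tests and alternatives were chosen with earlier results of these data known. Given per library are the 6 collagen genes with the smallest p in each tissue and the 3 of each class with the highest mean over the 12 libraries; others are given as means or ranges, and Col27a1 in intestine was added after its values were seen. From each further list the 2 tested genes with the smallest p per tissue are named, except 1 that is not reported here. The alternatives changed the scaling (quantile, median-ratio), the pseudocount (0.1 or 1), the filter (none, or RPKM 1), the test (limma voom on the recovered reads) or the samples (1 fit over the 4 groups), or used the replicate number as a block or left out each library. Promoter windows are from RefSeq (GRCm38.p6); their exon overlap was checked in GENCODE, and positions of genes are those of the expression table.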

Additional observations from a re-analysis of the deposited data

How the results depend on the processing

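In liver, 0 of 18 collagen genes were called; there was 1 call with median-ratio scaling (Col5a3; 3.44% of all genes), 3 with limma voom (5.07%), 2 with 1 fit over the 4 groups (Col1a1 and Col27a1; 6.85%), and 0 to 4 when a library was left out (0.393% to 6.64%), with 4 without PBS liver replicate 2 and 3 without LCWE liver replicate 4. The counts of 13 genes above and 3 below without overlap stayed within 9 to 15 and 3 to 4 over these alternatives. Over all genes the shares were 12.7% to 24.5% above and 5.83% to 19.5% below across the alternatives. The fibrillar liver median of 0.70 was -0.017 with a filter at RPKM 1 and 1.09 with voom. The basement membrane median of 0.55 was 0.15 with no filter and 0.90 for type IV alone, and the median of the other collagens of 0.51 was 0.034 with no filter. Col15a1 in liver was 0.03, against -0.089 with quantile scaling, -0.031 with median-ratio scaling and -0.15 to 0.27 when a library was left out. In intestine, genes with LCWE above PBS in every library numbered 2 of 44 with no filter (Col28a1 and Col8a1), against 9.37% of all genes. They numbered 0 to 24 when a library was left out, against 15.2% to 42.4% of all genes. Those with LCWE below PBS numbered 0 to 1, against 4.66% to 12.2% of all genes. Myl9 there ranged from -0.0049 to 0.36 when a library was left out. For the tissue difference, calls ranged from 0 to 1 when a library was left out. Of the 25 calls between control tissues, 15 were made among 17 genes tested when a PBS intestine library was left out, since the others then missed the detection limit, and up to 26 when a PBS liver library was. Over all genes, 65.0% to 67.1% were called without a PBS intestine library and 73.7% to 79.0% without a PBS liver library. Col13a1 was 0.69 with quantile and 0.73 with median-ratio scaling, and -0.072 to 0.12 when a library was left out; Col20a1 was 0.25 and Col24a1 0.0091 with quantile scaling. The cause of these moves was not tested.

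With the replicate number as a block, 0 collagen genes were called in liver and 0 in intestine, against 24 genes of all in liver, and the intestinal medians were 0.54 for basement membrane and 0.42 for other collagens. Between control tissues the block gave 26 calls, with Col14a1 added, against 76.3% of all genes. The block rests on numbers 2 and 4 within a tissue. Deviations of libraries with the same number correlated at -0.09 and -0.05 in liver and at 0.10 and 0.13 in intestine. They correlated at 0.03, -0.07 and 0.09 between PBS liver and PBS intestine, and at 0.04, 0.03 and 0.01 between LCWE liver and LCWE intestine. Such correlations cannot tell whether libraries with the same number share an animal, which the labels do not say. The fits without a block treat all libraries as independent.

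With 3 libraries a group, the 95% intervals of the tested collagen genes in intestine all include 0. Collagen genes under the detection limit held 0 to 172 reads in liver and 0 to 166 in intestine.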
